A study of Mus musculus with 12 samples.

Results

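*Ankrd34b*, *Fam198b*, *E230016K23Rik* and RP23-111M12.3 are 4 of the 28686 gene symbols counted by RNA-seq in the cochlea of mice that lost the Notch ligand JAG1. They were chosen by their level in the comparison of genotypes, in which the values of all mutants lay above those of all controls, so their difference between genotypes is described below and not tested. The question put to them was whether they followed the genes of neurons and glia between mice of the same genotype, or varied apart from those genes. All 4 were among the 18459 genes that passed the filter on low values, a mean of 5 or more reads over the mice. *E230016K23Rik* passed only through the mutants, with 89 reads over all mutants and 5 over all controls. The libraries came from cochleae taken at postnatal day 6. The strain is given as C57BL/6;129SV. The study's methods differ from this label, and name C57BL/6J for the *Sox2*-CreER line and FVB/n for the floxed *Jag1* line. Which background each mouse carried at a given locus is not given in the sources used here. The 6 mutants were *Sox2*CreER/+*Jag1*fl/fl and the 6 controls were *Sox2*+/+ mice of the same litters. The study pooled *Jag1*+/fl and *Jag1*fl/fl mice under this name, and which control carried which is not given in the sources used here. All pups received tamoxifen at postnatal days 0 and 1. In the mutants tamoxifen activates a CreER recombinase that is expressed from the *Sox2* locus in supporting cells, which then excises the floxed part of *Jag1*. Controls carried no CreER allele, so the loss of *Jag1* and the change at *Sox2* cannot be told apart between the genotypes. Between 28498549 and 36134983 reads per library were counted on genes. Levels are given in CPM, a read share in which the count of a gene is divided by the total of its library and a TMM normalization factor and scaled to a fixed library size. *Jag1* was between 83.0 and 118 CPM in controls and between 24.2 and 42.9 CPM in mutants, a log2 fold change of -1.48 (SE 0.13, edgeR adjusted p = 0.000257). *Sox2* averaged 33.9 ± 6.49 CPM in controls against 24.8 ± 3.602 CPM in mutants (SD, n = 6 each) and did not pass the threshold (log2 fold change -0.45, SE 0.13, edgeR adjusted p = 0.143).

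JAG1 is a membrane-bound ligand of the Notch receptors, and in the maturing cochlea it is found on supporting cells, the glia-like cells that surround the hair cells. The cochlea also holds the spiral ganglion neurons, which carry the signal of the hair cells to the brain, and the Schwann cells that wrap and myelinate their processes. Of the 4 genes, *Ankrd34b* encodes a protein with ankyrin repeats. *Fam198b*, now named *Gask1b*, encodes a Golgi-associated protein related to the FAM20 kinases of the secretory pathway. *E230016K23Rik* is annotated as a long noncoding RNA. RP23-111M12.3 is named after a bacterial artificial chromosome clone and was not found in GENCODE M21, so its position and product are not given here.

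On GRCm38, *Ankrd34b* lies on the forward strand at chr13:92425896-92441658 with 3 annotated transcripts. *Fam198b* lies on the forward strand at chr3:79884533-79946280 with 5 transcripts, 45.2 Mb from *Sox2* on the same chromosome. *E230016K23Rik* lies on the forward strand at chr11:83582056-83623693 with 3 transcripts and spans the chemokine gene *Ccl6* on the opposite strand, with which it shares no exon bases. The exons of *Ankrd34b* and *Fam198b* share bases with the antisense genes C030017D09Rik and Gm36569. C030017D09Rik held 9 counts over all 12 libraries, with 4 at most in a library, and Gm36569 has no entry under this name among the counted symbols. Whether reads were counted by strand is not given in the sources used here. The sequence before the start site is shown for the 3 genes with a RefSeq promoter window (build GRCm38.p6), because Notch signalling acts on promoters through the DNA-binding protein RBPJ. The first is chr13:92425719-92425895, the second chr3:79885680-79885929 and the third chr11:83581811-83582055, each read 5′ to 3′ on the forward strand, with GC boxes in capitals.
Ankrd34b: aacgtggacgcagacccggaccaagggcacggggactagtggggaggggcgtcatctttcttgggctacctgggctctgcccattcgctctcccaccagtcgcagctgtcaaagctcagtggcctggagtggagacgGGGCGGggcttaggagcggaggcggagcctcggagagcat
Fam198b: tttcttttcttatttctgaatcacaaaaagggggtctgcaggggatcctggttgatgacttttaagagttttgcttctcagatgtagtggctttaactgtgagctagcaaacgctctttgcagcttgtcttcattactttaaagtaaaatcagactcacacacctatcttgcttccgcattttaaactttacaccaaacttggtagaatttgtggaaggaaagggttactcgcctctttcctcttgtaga
E230016K23Rik: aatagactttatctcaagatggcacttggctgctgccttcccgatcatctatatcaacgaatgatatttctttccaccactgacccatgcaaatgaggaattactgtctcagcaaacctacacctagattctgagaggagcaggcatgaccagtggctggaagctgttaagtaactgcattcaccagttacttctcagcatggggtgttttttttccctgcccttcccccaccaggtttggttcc

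The 3 windows had little in common. In the 250 bases up to the annotated RefSeq start of each gene, GC content was 70.8% in *Ankrd34b*, 39.6% in *Fam198b* and 46.4% in *E230016K23Rik*. The *Ankrd34b* window held 23 CpG dinucleotides against 3 and 2 in the others. The *Fam198b* window lies inside the gene as annotated in GENCODE M21, within an intron of its longer transcripts. Each window was searched on both strands for 4 short motifs, of which none contains another. The RBPJ motif GTGGGAA, the E-box CACGTG and the class C E-box CACGCG, which the HES and HEY repressors downstream of Notch bind, were not found in these letters. Of 32851 windows of the same kind, 5.42%, 6.02% and 7.62% held them. The GC box GGGCGG was found in *Ankrd34b* alone, 113 bases before the RefSeq start and, on the reverse strand and outside the printed stretch, 44 bases before it. It occurs in 32.7% of all windows.

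*Ankrd34b* had the smallest spread of the 4 genes on the log2 scale, with a pooled SD within genotypes of 0.22 log2 CPM. Controls 1 to 6 were at 3.74, 3.36, 2.92, 2.37, 2.63 and 3.28 CPM, from 76 to 113 counts. Mutants 1 to 6 were at 8.09, 7.91, 6.02, 5.81, 6.53 and 7.15 CPM, from 199 to 264 counts. Mutants 1 and 2 were the highest and mutant 4 the lowest of their genotype, and even this mutant was 1.55 times the highest control. The average was 3.05 ± 0.507 CPM in controls against 6.92 ± 0.960 CPM in mutants (SD, n = 6 each). The fitted log2 fold change was 1.18 (SE 0.13).

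*Fam198b* varied more between mice. Controls 1 to 6 were at 4.77, 4.58, 4.16, 5.11, 5.69 and 8.13 CPM. Mutants 1 to 6 were at 11.6, 17.9, 11.2, 21.1, 10.2 and 17.2 CPM. Mutant 4, which had the lowest *Ankrd34b* of the mutants, had the highest *Fam198b*, and control 6 was above the other controls and closest to the mutants. The average was 5.41 ± 1.43 CPM in controls against 14.9 ± 4.47 CPM in mutants (SD, n = 6 each). The fitted log2 fold change was 1.46 (SE 0.21). The lowest mutant was 1.26 times the highest control.

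*E230016K23Rik* was close to the limit of detection in controls. Controls 1 to 6 held 0, 1, 1, 0, 3 and 0 reads, and mutants 1 to 6 held 9, 12, 20, 14, 26 and 8 reads. In CPM the mutants lay between 0.237 and 0.711, and no control exceeded 0.0867. No mutant was at 0, while 3 of the 6 controls were, and a count of 0 allows up to 3 counts, which is 0.107 CPM in the shallowest library. Over all mice of a genotype there were 5 reads in controls and 89 in mutants, and at equal depth this is a ratio of 16.6 (95% exact binomial interval 6.86 to 52.4). This interval covers counting error and not the spread between mice. The fitted log2 fold change of 3.86 (SE 0.56) depends on the prior count added to so few reads, and was 4.71 without control 5, which held 3 of the 5 control reads.

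RP23-111M12.3 was also a gene of few reads. Controls 1 to 6 held 5, 3, 9, 7, 9 and 5 reads, which is 0.178, 0.0892, 0.309, 0.218, 0.260 and 0.145 CPM. Mutants 1 to 6 held 12, 53, 35, 54, 61 and 34 reads, which is 0.368, 1.61, 0.988, 1.58, 1.67 and 1.01 CPM. Mutant 1 was well below the other mutants and only 1.19 times the highest control. The average was 0.200 ± 0.0796 CPM in controls against 1.20 ± 0.510 CPM in mutants (SD, n = 6 each). The fitted log2 fold change was 2.58 (SE 0.37). The summed reads, 38 in controls and 249 in mutants, gave a ratio of 6.12 at equal depth (95% exact binomial interval 4.34 to 8.85, counting error only). RP23-111M12.2, the other symbol from this clone, averaged 2.47 ± 1.19 CPM in controls against 2.83 ± 0.912 CPM in mutants (SD, n = 6 each), and the genotypes overlapped.

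**Figure D1:**
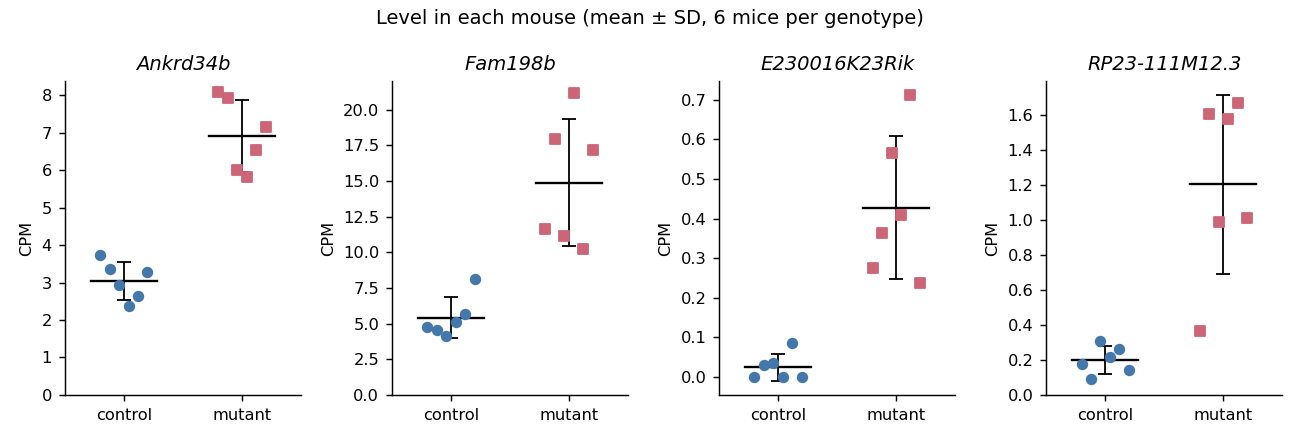
CPM of each gene in the 6 controls (circles) and 6 mutants (squares), with the mean (line) and SD (bars) of each genotype. In all 4 panels the mutants sit above the controls, with the narrowest gap in RP23-111M12.3, where mutant 1 is at 0.368 CPM and the highest control at 0.309 CPM.

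Over all genes tested, 114 (0.618%) had mutant values wholly above the control values, and 70 (0.379%) had them wholly below. In edgeR's quasi-likelihood test 35 genes (0.19%) had an adjusted p below 0.05, and 20 of these (0.108%) had the higher level in mutants. The 35 became 14 to 356 with 1 mouse left out, 356 without mutant 5 and 14 without control 2 or control 6. The rule that chose the 4 genes used this contrast, and it also favours genes with a small spread within each genotype. Per kilobase of annotated exon, *Ankrd34b* was at 0.642 ± 0.107 CPM per kb and *Fam198b* at 0.563 ± 0.149 CPM per kb in controls (SD, n = 6 each), and these control levels did not differ by more than their spread. In mutants they were at 1.46 ± 0.202 and 1.55 ± 0.466 CPM per kb (SD, n = 6 each), again within their spread. *E230016K23Rik* was far below both, at 0.00893 ± 0.0121 CPM per kb in controls and 0.152 ± 0.0640 CPM per kb in mutants (SD, n = 6 each).

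None of the other tested members of the gene families passed the threshold between genotypes. In the Ankrd34 family, *Ankrd34a* had a log2 fold change of 0.35 (SE 0.20, edgeR adjusted p = 0.626), and *Ankrd34c*, with 0 to 1.37 CPM per mouse, one of 2.51 (SE 1.103, edgeR adjusted p = 0.434). The FAM20 and FAM198 family of 6 genes includes the secretory kinases *Fam20b* and *Fam20c*. The named relative of *Fam198b*, *Fam198a*, averaged 42.7 ± 2.45 CPM in controls against 40.4 ± 5.55 CPM in mutants (SD, n = 6 each). The log2 fold changes of the others in this family lay between -0.12, for *Fam20a*, and 0.01, for *Fjx1*.

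The 3 tested genes on each side of the 3 located genes were also read, 18 in all. None passed the adjusted threshold in edgeR, 4 had an unadjusted p under 0.05 beside 10.6% of all genes, and their log2 fold changes lay between -0.60 and 1.61 with a median of -0.02, beside 0.00 over all genes. Of the neighbours of *Fam198b*, *Tmem144*, 31.8 kb away, had a log2 fold change of 0.42 (SE 0.11, edgeR adjusted p = 0.108). *Gria2*, a subunit of AMPA glutamate receptors 735.2 kb away, had one of 1.61 (SE 0.41, edgeR adjusted p = 0.108). The others with an unadjusted p under 0.05 were lower in mutants. These were *Pdgfc* by *Fam198b*, at -0.16 (SE 0.05, edgeR adjusted p = 0.218), and *Wfdc18* by *E230016K23Rik*, at -0.57 (SE 0.23, edgeR adjusted p = 0.364). All 6 neighbours of *E230016K23Rik*, which include the chemokines *Ccl3*, *Ccl5*, *Ccl6* and *Ccl9*, had mean levels below control in mutants, and none passed the threshold. *Ccl6*, which it overlaps, averaged 1.03 ± 0.868 CPM in controls against 0.685 ± 0.243 CPM in mutants (SD, n = 6 each, edgeR adjusted p = 0.760). The 6 neighbours of *Ankrd34b* had log2 fold changes between 0.02, for *Zfyve16*, and 0.41, for *Gm20379*, and none passed.

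Markers of nerve differed widely between mice. A neuron score and a Schwann cell score were computed for each mouse as the mean log2 CPM of 16 neuron markers, such as the neurofilament gene *Nefl*, and of 13 Schwann cell markers, such as the myelin gene *Mbp*. All 16 neuron markers and all 13 Schwann cell markers had higher means in mutants, with median log2 fold changes of 2.50 and 1.69. Each of these 29 genes had an unadjusted p under 0.05 in edgeR, beside 6.52% of all genes higher in mutants at that p, and none passed the adjusted threshold. The marker lists were chosen with earlier results of these data known, so such counts describe the lists and are no test. *Mbp* ranged from 39.9 to 219 CPM in controls and from 173 to 1048 CPM in mutants, and *Nefl* from 1.96 to 28.1 CPM and from 12.5 to 197 CPM. In bulk tissue, more cells of a type in the sample and more RNA per cell cannot be told apart. The study's results name the sequenced tissue as cochlear sensory epithelium and its methods as cochlear tissue. How much nerve each dissection kept is not given in the sources used here. In stained sections of the same age, the study found no significant difference between genotypes in spiral ganglion neurons per unit area. This is a density of cells within the ganglion, from fewer mice, and a measure unlike marker RNA in dissected tissue. From unchanged response latencies of the auditory nerve at 6 weeks, the study proposes that myelination of this nerve was not altered. Of the other lists, 0 of 12 macrophage markers had a higher mean in mutants (median log2 fold change -0.22, 6 lower at an unadjusted p under 0.05), whereas 50.9% of all genes had a log2 fold change above 0 and 4.04% were lower at that p. Hair cell, supporting cell, dividing cell, mesenchyme, bone and cartilage, endothelium and melanocyte markers had medians between -0.12 and 0.02, and no marker of any list passed the adjusted threshold.

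The scores of the genotypes overlapped, whereas the 4 genes, by the rule that chose them, did not. The neuron score lay between 1.11 and 3.11 in controls and between 2.22 and 5.78 in mutants, and the Schwann cell score between 3.28 and 5.43 in controls and between 5.15 and 7.13 in mutants. Mutant 5 had a neuron score of 2.22 and a Schwann cell score of 5.35, both below those of control 1, at 3.11 and 5.43. At these scores *Ankrd34b* was at 6.53 CPM in mutant 5 and 3.74 CPM in control 1, and *Fam198b* was at 10.2 and 4.77 CPM. *E230016K23Rik* held 26 reads in mutant 5, the most of any mouse, and 0 in control 1, and RP23-111M12.3 held 61 and 5. The direction in this pair was fixed in advance, because the rule put every mutant above every control. The pair is a description and no test of a difference at equal scores. Mutant 4 parted the scores, since it had the highest neuron score of all mice, 5.78, and the lowest Schwann cell score of the mutants, 5.15. As deviations from the genotype means, the scores had a Pearson's r of 0.43 (exact permutation p = 0.208) and a Spearman's rho of 0.57 (exact permutation p = 0.0777) over the 12 mice.

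Each gene was then set against the scores with genotype as a term in the edgeR model, which leaves the variation between mice of the same genotype. None of the 4 genes had a slope that passed the adjusted threshold for either score. Over all genes, 347 (1.88%) passed for the neuron score, 344 of them (1.86%) with a positive slope. For the Schwann cell score 82 (0.444%) passed, 81 of them (0.439%) with a positive slope. These counts were 197 for the neuron score without mutant 5 and 242 for the Schwann cell score without mutant 4. At an unadjusted p under 0.05, 1 of the 4 passed for each score, beside 7.28% and 5.2% of all genes. DESeq2 and limma-voom also called none of the 4, and at an unadjusted p under 0.05 each had 1 for the neuron score, and for the Schwann cell score 1 with DESeq2 and 2 with limma-voom, the second being RP23-111M12.3 with a negative slope of -0.51 (SE 0.23).

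The slope of *Ankrd34b* on the Schwann cell score was 0.24 log2 units per unit of score (SE 0.07, unadjusted p = 0.00352, edgeR adjusted p = 0.339). By comparison *Mbp*, a marker within the score, had a slope of 1.21 (SE 0.06). The deviations of *Ankrd34b* and of the score from the genotype means had a Pearson's r of 0.86 over the 12 mice (exact two-sided permutation within genotypes, p = 0.000741, and 0.165 after adjustment over all 18459 genes). Spearman's rho was 0.94 (exact permutation p = 0.000185, adjusted 0.104), and 79 genes had a larger absolute r. Without control 4 and mutant 1, the mice farthest from the median score, r was 0.74. The relation had the same sign in each genotype, with r = 0.86 in controls (exact permutation p = 0.0153, adjusted 0.474) and 0.88 in mutants (exact permutation p = 0.0236, adjusted 0.702). Within a genotype it rested in part on 2 mice, since r was 0.41 without controls 1 and 4 and 0.49 without mutants 1 and 2. All 13 Schwann cell markers had a positive r with *Ankrd34b*, from 0.61 for *Drp2* to 0.87 for *Gldn*, with a median of 0.81. The score is the mean of these markers, so this count restates the relation with the score and is no separate evidence. The same holds for the marker counts of the other genes.

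Its relation with the neuron score was less even. Over the 12 mice r was 0.41 (exact permutation p = 0.186, adjusted 0.974) and rho 0.51 (exact permutation p = 0.118), and without mutant 4 and control 4 r was 0.80. Without mutant 4 alone, r was 0.84 (adjusted p = 0.121 over all genes, exact permutation). In controls r was 0.91 (exact permutation p = 0.0139, adjusted 0.445) and in mutants 0.10 (exact permutation p = 0.821). This difference between the genotypes was not past the threshold (interaction -0.28 log2 per unit of score, SE 0.15, unadjusted p = 0.0794, edgeR adjusted p = 0.918). In edgeR no gene of the 18459 passed for either interaction (0% called), and 881 (4.77%) and 1516 (8.21%) had an unadjusted p under 0.05 for the neuron and the Schwann cell score. With both scores in the model, the slope of *Ankrd34b* was 0.24 (SE 0.08, edgeR adjusted p = 0.384) on the Schwann cell score and 0.01 (SE 0.06, edgeR adjusted p = 0.99997) on the neuron score. With the neuron score alone its slope was 0.09 (SE 0.07, edgeR adjusted p = 0.942). This order depended on mutant 4, which parted the scores. Without it the slopes in models with a single score were 0.20 (SE 0.07, edgeR adjusted p = 0.300) for neurons and 0.24 (SE 0.08, edgeR adjusted p = 0.323) for Schwann cells.

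*Fam198b* showed another order. Its slope on the neuron score was 0.21 (SE 0.10, unadjusted p = 0.0423, edgeR adjusted p = 0.644) and on the Schwann cell score -0.03 (SE 0.15, edgeR adjusted p = 0.9999). The deviations had an r of 0.52 with the neuron score (exact permutation p = 0.125, adjusted 0.926) and a rho of 0.40 (exact permutation p = 0.236), without mutant 4 and control 4 r was 0.33, and without mutant 4 alone 0.32. In mutants r was 0.78 (exact permutation p = 0.0639) and in controls -0.04 (exact permutation p = 0.946), and the difference in slope was not past the threshold (0.30, SE 0.22, edgeR adjusted p = 0.918). All 16 neuron markers had a positive r with *Fam198b*, from 0.05 for *Ina* to 0.69 for the sodium channel gene *Scn9a*, with a median of 0.49. With the Schwann cell score r was -0.02 (exact permutation p = 0.946) and rho -0.03 (exact permutation p = 0.964), and 4 of 13 markers were positive.

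The noncoding and clone-named genes had fitted slopes below 0 on both scores, with none past the threshold, and the neuron slope of RP23-111M12.3 was 0.069 without mutant 5. The slopes of *E230016K23Rik* were -0.28 (SE 0.20, edgeR adjusted p = 0.933) on the neuron score and -0.32 (SE 0.33, edgeR adjusted p = 0.9999) on the Schwann cell score. Against the neuron score its r was -0.39 (exact permutation p = 0.236, rho -0.35), against the Schwann cell score -0.21 (exact permutation p = 0.535, rho -0.44), and none of the 29 markers had a positive r with it. These r depended on the prior count, and with a prior count of 0.5 those with the scores were -0.25 and -0.07. The slopes of RP23-111M12.3 were -0.09 (SE 0.17, edgeR adjusted p = 0.989) and -0.36 (SE 0.23, edgeR adjusted p = 0.9999). Its r was -0.26 (exact permutation p = 0.511, rho -0.49) and -0.50 (exact permutation p = 0.125, rho -0.57), with 2 of 16 neuron and 1 of 13 Schwann cell markers positive. For *E230016K23Rik*, with at most 3 reads per control, the r in controls rests on differences of 1 to 3 reads. In mutants its r was -0.59 for neurons and -0.54 for Schwann cells (exact permutation p = 0.222 and 0.265). Single mice weighed on these values. For *E230016K23Rik* without mutant 5 r was -0.12 on the neuron score and -0.046 on the Schwann cell score, where it reached -0.48 without control 4. For RP23-111M12.3 the slope on the Schwann cell score was -0.13 without mutant 1 and -0.75 (SE 0.23, unadjusted p = 0.0073, edgeR adjusted p = 0.722) without mutant 2, with r of -0.28 and -0.71. A p that misses the threshold does not show that these genes were unrelated to the scores. The 95% intervals of the slopes reached from -0.71 to 0.15 and from -1.04 to 0.39 for *E230016K23Rik*, and from -0.45 to 0.27 and from -0.86 to 0.14 for RP23-111M12.3, neuron score first. The interval of *Ankrd34b* on the Schwann cell score, from 0.09 to 0.39, overlaps both Schwann cell intervals.

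**Figure D2:**
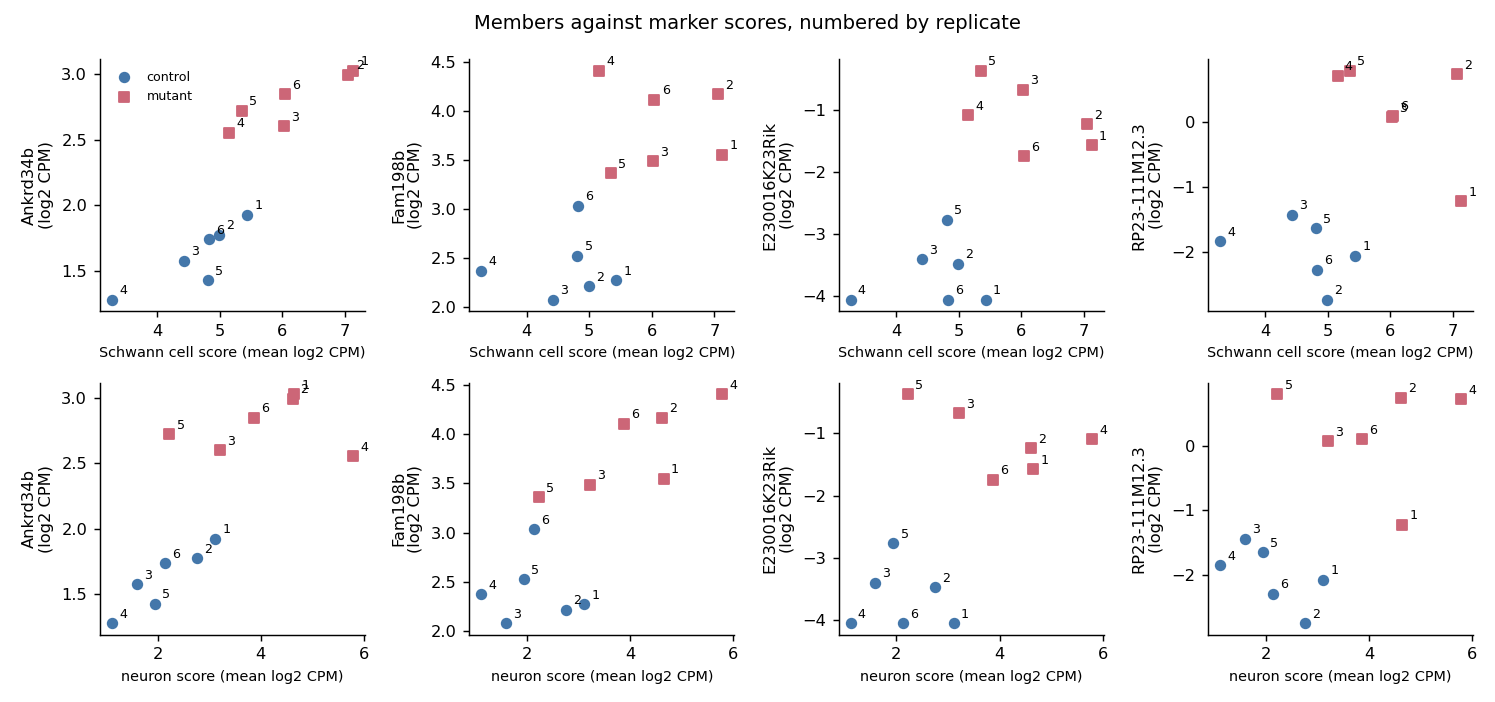
Log2 CPM (prior count 2) of each gene against the Schwann cell score (top) and the neuron score (bottom) in controls (circles) and mutants (squares), numbered by replicate. *Ankrd34b* is higher in mice with a higher Schwann cell score in both genotypes (r = 0.86 and 0.88), and mutant 4 has the highest neuron score with the lowest *Ankrd34b* of the mutants. RP23-111M12.3 is lower in mutant 1, which has the highest Schwann cell score, 7.13, than in the other mutants. Mutant 2, with nearly the same Schwann cell score, 7.06, is among the higher mutants, at 1.61 CPM.

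**Figure D3:**
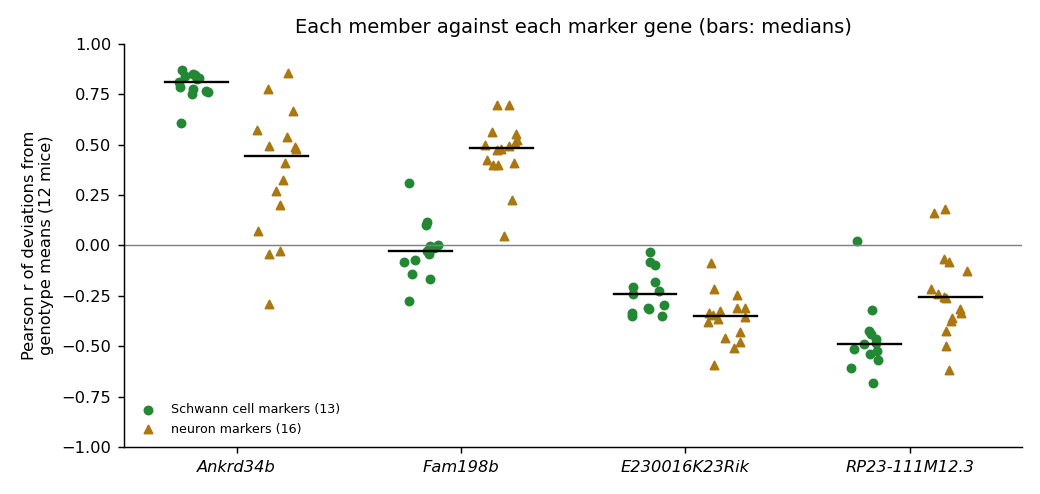
Pearson's r of the deviations from the genotype means over 12 mice between each gene and each of the 13 Schwann cell markers (circles) and 16 neuron markers (triangles), with bars at the medians. *Ankrd34b* has all Schwann cell markers between 0.61 and 0.87, *Fam198b* has all neuron markers above 0, and *E230016K23Rik* has all 29 markers below 0. The markers of a list make up its score, so the points are not separate observations.

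With the scores as covariates the difference between genotypes became smaller for 2 genes and larger for the others. At equal neuron and Schwann cell scores the log2 fold change of *Ankrd34b* was 0.81 (SE 0.16), which is 68.6% of its value without the scores, and that of *Fam198b* was 1.12 (SE 0.29), or 77.0%. Those of *E230016K23Rik* and RP23-111M12.3 were 4.65 (SE 0.76) and 3.13 (SE 0.54), or 120% and 122%. These changes were not tested. Those of *Fam198b* and RP23-111M12.3 were smaller than their pooled SD within genotypes, 0.39 and 0.64 log2 CPM. With the replicate block the direction of change was the opposite for *Ankrd34b*, *E230016K23Rik* and RP23-111M12.3, as given in the closing section. For *Ankrd34b* the Schwann cell score alone gave 0.82 (SE 0.14) and the neuron score alone 1.01 (SE 0.18). For *Fam198b* the order was the other way, with 1.495 (SE 0.30) and 1.004 (SE 0.26). Since the scores themselves differed between genotypes, by 1.95 for neurons and 1.5 for Schwann cells, and only 1 mutant had a neuron score and 2 had a Schwann cell score below the highest control, these values compare mice over a narrow shared range. The value of *E230016K23Rik* was 5.57 without control 5 and 3.53 without mutant 4. Over all genes, 1 (0.00542%) passed the adjusted threshold for genotype with both scores in the model, 2 (0.0108%) when only neurons were scored and 3 (0.0163%) when only Schwann cells were.

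**Figure D4:**
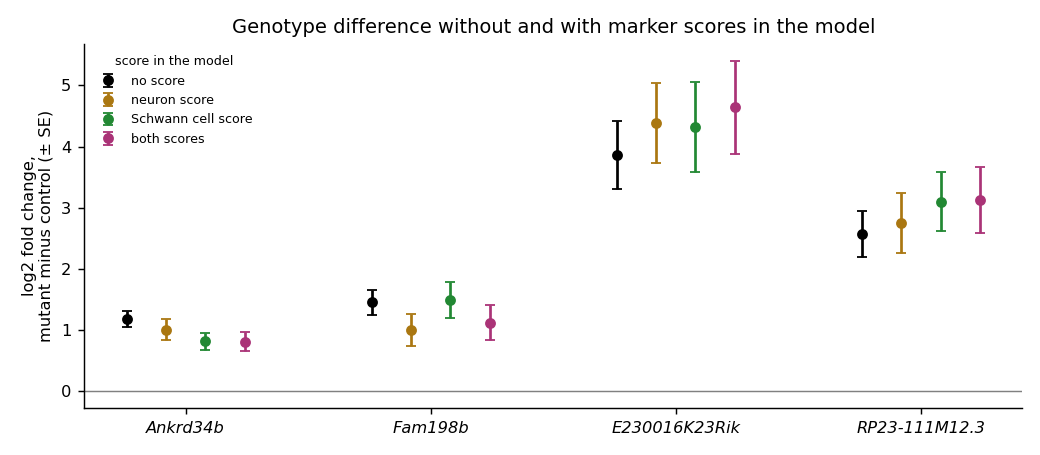
Log2 fold change between mutants and controls (± SE, n = 6 per genotype) of each gene in edgeR models with no score, the neuron score, the Schwann cell score or both. The points of *Ankrd34b* and *Fam198b* come down to 0.81 and 1.12 with both scores, and those of *E230016K23Rik* and RP23-111M12.3 go up to 4.65 and 3.13. These changes were not tested.

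No pair of the 4 genes passed a test of moving together between mice of the same genotype. Over 6 pairs, r of the deviations lay between -0.49, for *Ankrd34b* and RP23-111M12.3 (exact permutation p = 0.107), and 0.44, for *E230016K23Rik* and RP23-111M12.3 (exact permutation p = 0.180). None of the 6 had an unadjusted p under 0.05. With the scores of the 8 other cell types, 32 relations in all, the smallest p were those of *Fam198b* with bone and cartilage markers (r = 0.64, exact permutation p = 0.0326) and with mesenchyme markers (r = 0.65, exact permutation p = 0.0334). Adjusted over all genes, the first was 0.9998 and the second 1. The hair cell and supporting cell scores gave r between -0.35 and 0.65 with the 4 genes, and none had an exact permutation p under 0.05.

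The genes whose deviations were most like those of each of the 4 were taken from the 14191 or 14192 others with a mean count of at least 50, as a description without a test. *Ankrd34b* was closest to *Osbpl1a*, an oxysterol-binding protein gene (r = 0.95), and to the phosphatase gene *Dusp18* (0.91), neither of which differed much between genotypes (log2 fold changes 0.07 and 0.12). Next came *Foxd3*, a transcription factor of the neural crest and its glia (0.90), *Gjd2*, the gene of connexin 36 (0.90), and *Pou3f1*, a transcription factor of Schwann cells about to myelinate (0.88). Their log2 fold changes between genotypes were 2.45, 2.25 and 2.59, and none passed the adjusted threshold. *Fam198b* was closest to the adhesion gene *Cadm1* (0.87), the neuronal membrane protein gene *Slitrk5* (0.85), *Zcchc16* (0.85), the lipid transporter *Abca7* (0.85) and the large cadherin *Fat3* (0.84). For *E230016K23Rik* these were *Gm4841* (0.93), *Fggy* (0.86), *Pcdhga4* (0.82), the cation channel *Trpm5* (0.81) and *6330408A02Rik* (0.81). RP23-111M12.3 was closest to *Iigp1*, an interferon-inducible GTPase (0.95), followed by *Scaper* (0.86), *Odf2* (0.86), *E2f7* (0.86) and *Tfb2m* (0.85). *Iigp1* averaged 20.02 ± 1.099 CPM in controls against 24.3 ± 3.43 CPM in mutants (SD, n = 6 each). Its r with RP23-111M12.3 was 0.90 in controls and 0.99 in mutants, and it did not pass the threshold (edgeR adjusted p = 0.196). With this many genes and 12 mice, the highest r is large for each of the 4.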

How the data were processed

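RNA was taken from the cochleae of 6 mutants and 6 controls at postnatal day 6 and sequenced as single-end reads. The file deposited by the authors holds raw read counts for each gene symbol in each mouse, without normalization or pooling. The submitters' processing notes name Trimmomatic 0.32, STAR 2.4.2a, HTSeq 0.9.1 and build GRCm38.p4, and DESeq2 1.10.1 for their own comparison. The table of that comparison holds fold changes and p-values and was not used. Groups and replicate numbers came from the labels. Each library was counted as a replicate, and where separate animals are not stated the p-values measure the spread between libraries.

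The 18459 genes with 5 or more reads on average were fitted on all 12 mice with edgeR (version 4.0.16, R version 4.3.3), using TMM factors and the robust quasi-likelihood F-test. Benjamini-Hochberg adjustment was over all of them. The SE is the log2 coefficient divided by the square root of F. A score averages the log2 CPM (prior count 2) of a list's markers and was entered beside genotype. Correlations used deviations from genotype means, with exact two-sided permutation of the scores within genotypes, over 8 relations of the 4 genes with both scores and 16 within single genotypes. Adjustment over these few relations had been planned, and adjustment over all genes was used instead, since the 4 genes were chosen with results known. With 6 mice the smallest exact p is 0.00139. The members and all lists were chosen with earlier results of these data known. Alternatives were DESeq2 1.42.0, limma-voom (limma 3.58.1), other normalizations, filters and scores, a block and leaving out each mouse. The genes named are the 4 genes, *Jag1*, the families, the nearest tested neighbours, the 5 most similar genes and markers. *Sox2* and RP23-111M12.2 were named after their values were seen. The fits were tested on simulated data, in which most score slopes of 0.25 log2 units per unit of score were not called. Most slopes of 0.5 were called there. The simulated slopes were given to genes drawn at random from all those tested. They do not show what could be called in genes of few reads, such as *E230016K23Rik* and RP23-111M12.3. Positions were read from GENCODE M21 (GRCm38), where 3 of the 4 genes were found. The values of 1 marker gene are not reported here.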

Additional observations from a re-analysis of the deposited data

How the results depend on the processing

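The number of genes called between genotypes, 35, was 618 with DESeq2, 19 with limma-voom, 57 without a filter, 23 with the *Xist* level as a covariate, 1 with both scores, 131 with the replicate block, and 14 to 356 with 1 mouse left out (356 without mutant 5, 14 without control 2 or control 6). The 347 genes called for the neuron score became 158 with the block and 197 to 443 with 1 mouse left out (197 without mutant 5). The 82 for the Schwann cell score became 152 with DESeq2, 132 with the neuron score added, 0 with the block and 55 to 242 with 1 mouse left out (242 without mutant 4).

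The direction of the genotype difference of the 4 genes was fixed by how they were chosen. *E230016K23Rik* was not tested with a mean count of at least 20 or with filterByExpr. At equal scores the leave-one-out log2 fold changes were 0.66 to 0.87 for *Ankrd34b*, 0.95 to 1.33 for *Fam198b*, 3.53 (without mutant 4) to 5.57 (without control 5) for *E230016K23Rik* and 2.77 to 3.46 for RP23-111M12.3. No slope or correlation of the 4 passed the adjusted threshold in any setting. Adjusted p for the Schwann cell slope of *Ankrd34b* lay between 0.119 (DESeq2) and 1 (replicate block), and its leave-one-out r between 0.80 and 0.93. *Fam198b* against the Schwann cell score changed sign, with leave-one-out slopes of -0.11 to 0.13 and r of -0.20 to 0.25. The neuron slope of RP23-111M12.3 was -0.33 to 0.069 (0.069 without mutant 5).

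Replicate numbers were not taken as pairs, since the correlations of same-numbered mice lay between -0.29 and 0.46 and 2 of 6 controls matched their own number best. Which mice shared a litter is not given in the sources used here. The fits without the block and the permutations treat all mice as independent, so litter was not accounted for. With the replicate block, slopes turned to 0.83 (*E230016K23Rik*) and 0.10 (RP23-111M12.3) on the neuron score, and to -0.042, 0.78, 0.99 and 0.21 on the Schwann cell score in the order *Ankrd34b*, *Fam198b*, *E230016K23Rik*, RP23-111M12.3. In that order the block gave 1.27, 0.35, 3.17 and 2.29 for genotype at equal scores and 1.19, 1.44, 3.93 and 2.53 without the scores, so that adding the scores raised the value of *Ankrd34b* and lowered those of *E230016K23Rik* and RP23-111M12.3, the opposite of the fits without the block. The causes of these changes were not tested. With 0 to 3 reads per control, depth limits what can be said of *E230016K23Rik*.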
